A study of Drosophila melanogaster with 12 samples.

Results

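ORC2 binding was described at the loci of 10 genes of the ecdysone response in the larval fat body of Drosophila melanogaster: the receptor genes EcR and usp, and the response genes br, Eip74EF, Eip75B, Eip78C, Eip93F, ftz-f1, Hr3 and Hr4. The members are a list of well-known genes of the cascade, and all 10 were found among the 17807 placed genes of the Release 6 annotation. A locus is the annotated gene span with 1 kb added to each side. A row of a peak list was counted for a locus when it overlapped it by at least 1 bp, and no row was counted for more than 1 of the 10 loci.

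The chromatin came from wild-type OregonR males at 3 stages: 2nd instar larvae aged 67 to 68 h after egg laying, mid-3rd instar larvae aged 91 to 92 h, and late-3rd instar larvae that were wandering, for which no age in hours is given. Each stage had 2 ORC2 libraries and 2 input libraries, 12 in all, and each library pooled the hand-dissected fat bodies of many larvae, with the testes removed. The groups shared strain, genotype, sex and antibody and differed in stage alone as far as the labels go. The paper's methods also give more larvae for the 2nd instar than for either later stage. The part of larva number in the peak numbers was not tested. A list of ChIP peaks holds no measure of RNA, so the labelled tissue was not checked against marker genes.

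ORC2 is a subunit of the origin recognition complex, which binds DNA and loads the replicative helicase at sites where replication can start. Larval fat body cells are polyploid and copy their genome in endocycles without dividing. The paper detected no DNA synthesis in late-3rd instar fat body, where ORC2 was also not concentrated in the nuclei. Ecdysone is the steroid hormone that times moulting and metamorphosis. It binds a heterodimer of the nuclear receptors EcR and Usp, which turns on early genes such as br, Eip74EF and Eip75B. Their protein products in turn act on later genes, among them Hr3 and ftz-f1. Pulses of the hormone precede the larval moults, and a large pulse at the end of larval life brings on pupariation.

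The lists held 45 merged ORC2 regions at the 10 loci in 2nd instar fat body, 22 at mid-3rd and 13 at late-3rd instar. A merged region is a stretch in which the authors joined nearby peaks of the 2 replicates of a stage, and its row names the peaks it holds. EcR, Eip75B, Eip74EF and ftz-f1 held most of these regions. The br locus held regions at late-3rd instar only, and Eip78C, Eip93F, Hr3 and Hr4 at 2nd instar only. The whole lists shortened as well, from 4239 regions at 2nd instar to 2053 at mid-3rd and 706 at late-3rd instar. The share of all genes with regions at 2nd instar only is not given here. Replicate 2 gave most of the later regions at the loci, and without it 9 regions were left at mid-3rd and 6 at late-3rd instar. In the plot of peaks per replicate, EcR and Eip75B stand far above the other loci at 2nd instar.

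**Figure D1:**
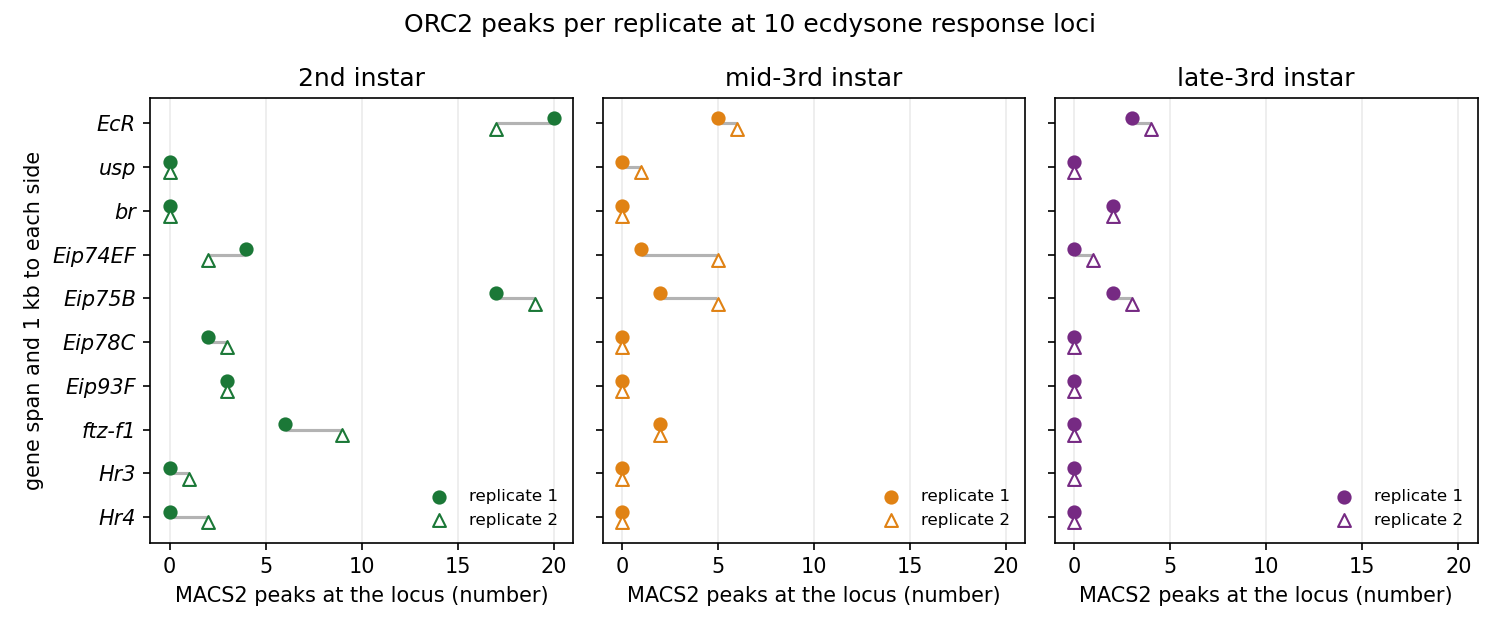
Number of MACS2 peaks (x axis) at each of the 10 loci (y axis, gene span and 1 kb to each side) in 2nd, mid-3rd and late-3rd instar fat body. Filled circles are replicate 1, open triangles are replicate 2, and a grey line joins the 2 replicates. EcR had 20 and 17 peaks at 2nd instar, and br had peaks (2 and 2) at late-3rd instar only.

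The number of loci with a region was 8 of 10 at 2nd instar, against 30.9% of all genes. It was 5 of 10 at mid-3rd instar, against 17.9% of all genes, and 4 of 10 at late-3rd instar, against 4.79% of all genes. The loci are long, with a median span of 63.0 kb against 1.70 kb over all genes, and a long gene overlaps a region more often. Of all 325 genes of 50 kb and over, 60.0% had a region at 2nd instar, 44.6% at mid-3rd and 20.9% at late-3rd instar. The 7 loci of that length had a region in 6, 4 and 4 cases at the 3 stages. Genes of this length thus lay between the 10 loci and all genes at each stage.

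Density takes the length out, but the arms are counted over their full length, with the sequence between genes, while the loci are gene spans with 1 kb to each side. A density over gene spans alone is not given here. The loci held 7.21 regions per 100 kb at 2nd instar, against 3.07 over the chromosome arms X, 2L, 2R, 3L and 3R. The values were 3.52 at the loci against 1.48 over the arms at mid-3rd instar, and 2.08 against 0.467 at late-3rd instar. The ratios of loci to arms were 2.35, 2.39 and 4.46. EcR and Eip75B carried much of this, since together they held 25 of 45, 14 of 22 and 10 of 13 regions. Without both, the pooled density of the other 8 loci was 4.70, 1.88 and 0.705 per 100 kb at the 3 stages. Each value was above that of the arms, but the single loci were uneven. At 2nd instar Eip74EF, Eip78C, Eip93F and ftz-f1 lay above the arms, and usp, br, Hr3 and Hr4 below. Of the 8 loci, only usp, Eip74EF and ftz-f1 held regions at mid-3rd instar, and only br and Eip74EF at late-3rd instar. Without replicate 2, the 10 loci held 1.44 regions per 100 kb at mid-3rd instar, against 0.583 over the arms, and 0.961 at late-3rd instar, against 0.204 over the arms, so that the ratios were 2.47 and 4.71. The share of sequence covered by regions was 9.91%, 2.51% and 1.45% at the loci, against 3.15%, 1.11% and 0.331% over the arms.

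**Figure D2:**
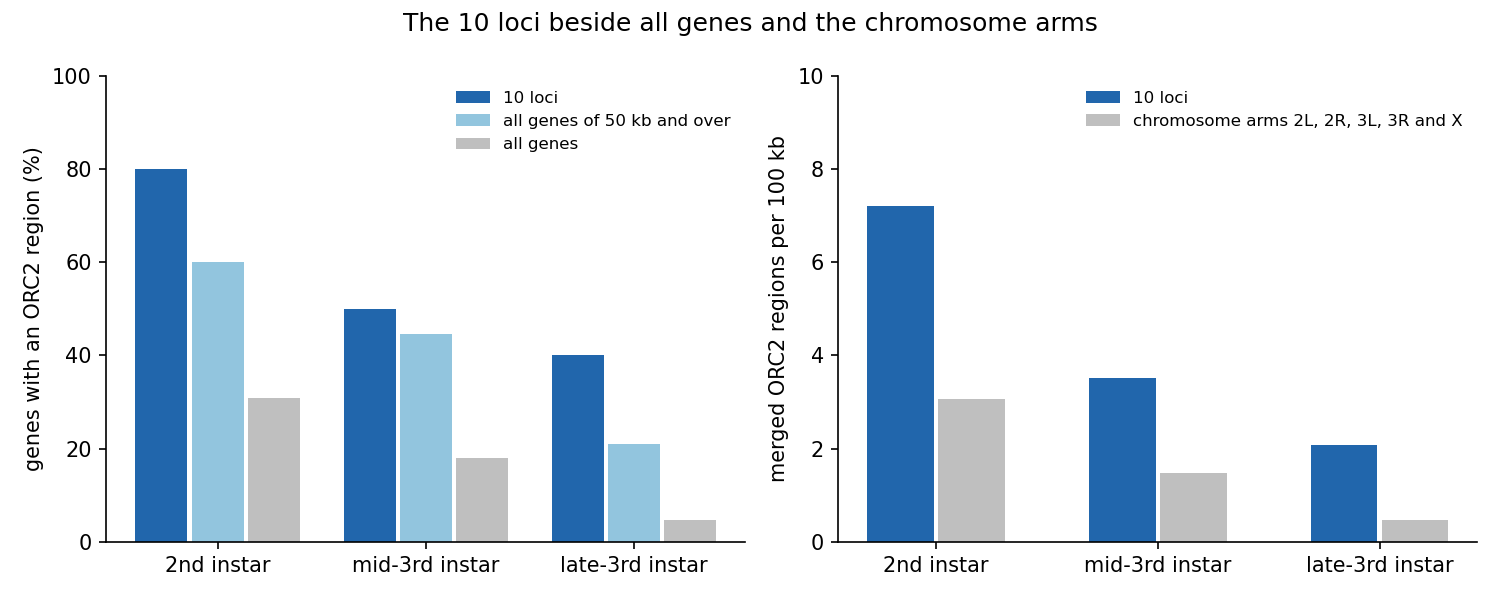
Left, percent of genes with at least 1 merged ORC2 region at each stage, for the 10 loci, all genes of 50 kb and over, and all genes. Right, merged regions per 100 kb at the loci and over the chromosome arms. The loci are at 7.21 per 100 kb and the arms at 3.07 at 2nd instar, and at 2.08 and 0.467 at late-3rd instar.

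Counted per replicate, the 10 loci held 52 and 56 MACS2 peaks at 2nd instar, 10 and 19 at mid-3rd and 7 and 10 at late-3rd instar (54.0 ± 2.83, 14.5 ± 6.36 and 8.5 ± 2.12, mean and SD, n = 2 each). Both replicates of each later stage thus had fewer peaks than either 2nd instar replicate, while mid-3rd and late-3rd instar overlapped. The mean was lower at mid-3rd than at 2nd instar, with a difference of -39.5 peaks (p = 0.333 in an exact two-sided permutation test over replicates), and lower at late-3rd than at 2nd instar, with a difference of -45.5 (exact p = 0.333). Late-3rd minus mid-3rd instar was -6.0 (exact p = 0.667). With 2 replicates a stage, 0.333 is the smallest p that can be reached, so no difference could pass 0.05. The full lists shortened too, with 4277 and 3831 peaks at 2nd instar, 930 and 1994 at mid-3rd and 370 and 500 at late-3rd instar. The number of reads per library is unknown here. Its part in the shorter lists was not tested.

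As a share of the same replicate's list, the loci held 1.22% and 1.46% of peaks at 2nd instar, 1.08% and 0.953% at mid-3rd instar, and 1.89% and 2.00% at late-3rd instar. The mean share was 0.607 percentage points higher at late-3rd instar (1.95 ± 0.0764%) than at 2nd instar (1.34 ± 0.174%, SD, n = 2 each, exact permutation p = 0.333). It was 0.932 points higher at late-3rd than at mid-3rd instar (1.01 ± 0.0866%, exact permutation p = 0.333). Mid-3rd instar was below 2nd instar, with a difference of -0.325 points (exact permutation p = 0.333). The replicates of the stages did not overlap, but the Wilson 95% intervals did, at 0.919 to 3.85% and 1.09 to 3.64% for the late-3rd instar replicates and 0.928 to 1.59% and 1.13 to 1.89% for those of 2nd instar. These intervals cover counting error only and treat peaks as independent. The shares set the loci against the whole list of the same replicate. Their permutation tests cannot decide whether the loci fell otherwise than the lists, since 0.333 is the smallest p with 2 replicates a stage.

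The genes of the 2 receptor subunits were unlike in length and in number of regions. EcR encodes the ecdysone receptor, which binds the hormone, and spans 81.2 kb on 2R from 6087873 to 6169087. It held 20 and 17 peaks in the 2nd instar replicates, 5 and 6 at mid-3rd and 3 and 4 at late-3rd instar. Both replicates of every stage thus had peaks there. Merged, these made 13, 8 and 6 regions, and 1, 1 and 2 genes of the whole annotation held more. The regions covered 22.7 kb of the locus at 2nd instar, 5.64 kb at mid-3rd and 4.45 kb at late-3rd instar, or 27.3%, 6.78% and 5.35%. The widest region of the 10 loci lay here, from 6138582 to 6146259 at 2nd instar, 7678 bp with 4 peaks of each replicate. Of the EcR regions, 7 of 13 at 2nd instar, 2 of 8 at mid-3rd and 0 of 6 at late-3rd instar held peaks of both replicates.

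High-confidence peaks are those the authors kept for agreeing between replicates, by an irreproducible discovery rate (IDR) under 0.1, a low IDR standing for close agreement. They were called apart from the merged regions and need not have the same ends. Such a peak was found at 4 of the 10 loci at 2nd instar (8.13% of all genes), at 4 at mid-3rd instar (3.02%) and at 1 at late-3rd instar (0.264%). These loci were EcR, Eip74EF, Eip75B and ftz-f1 at both earlier stages, and br at the last. The share among genes of 50 kb and over is not given for these peaks, so the length of the loci is not taken into account. EcR had a peak from 6151077 to 6151551 at 2nd instar (475 bp, IDR 0.00065) and from 6151083 to 6151521 at mid-3rd instar (439 bp, IDR 0.00835), and a late-3rd instar region of replicate 2 alone lay over it, from 6150996 to 6151595. This site is 63.2 kb inside the lower end of the gene and 17.5 kb from the upper end. The 2nd, mid-3rd and late-3rd instar regions at this site had 600 bp in common. A second 2nd instar peak, from 6141772 to 6145530, had an IDR of 0.0627. Chains of regions within 1 kb of each other, from 6158664 to 6162849 and from 6168479 to 6169989, also had members from all 3 stages, but no base in them was covered at every stage.

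The upper part of the EcR span also holds tRNA genes. Of 14 tRNA genes at the locus, 14 had a region within 1 kb at 2nd instar, 11 at mid-3rd and 6 at late-3rd instar. Over all 290 tRNA genes the shares were 57.2%, 34.1% and 8.97%. Of the EcR regions, 5 of 13, 4 of 8 and 2 of 6 lay within 1 kb of a tRNA gene, which left 8, 4 and 4 regions farther away. Copies of a tRNA gene are nearly identical, so reads there may have been placed on the wrong copy.

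The partner gene usp encodes Ultraspiracle, the fly counterpart of the vertebrate RXR, and is the shortest of the loci, at 3.51 kb on the X from 2038798 to 2042311. It had 0 and 0 peaks at 2nd instar, 0 and 1 at mid-3rd and 0 and 0 at late-3rd instar. Its 1 region, from 2042150 to 2042749, rests on replicate 2 alone and runs past the gene end, within 1 kb of Actn, CG4313 and CG4325 as well. Of all genes under 5 kb, 26.1% had a region at 2nd instar, 14.8% at mid-3rd and 3.47% at late-3rd instar.

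Among the early genes, br had a pattern shared by no other member. Broad is a zinc finger transcription factor needed for metamorphosis, and its gene spans 89.7 kb on the X from 1575132 to 1664869. The locus had 0 and 0 peaks at 2nd instar, 0 and 0 at mid-3rd and 2 and 2 at late-3rd instar. The late peaks merged into a region from 1628219 to 1628819 and a region from 1634928 to 1635551, each with a peak of both replicates. A high-confidence peak from 1628123 to 1630443 (2321 bp, IDR 0.0486) ranked 33 of 60 in the late-3rd instar list, and it was the only one at the 10 loci at that stage. The nearest region outside the locus was 107.6 kb away at 2nd and at mid-3rd instar. This pattern, with no region at 2nd and mid-3rd instar and a late-3rd instar region of both replicates, was seen at 3 of all 17807 genes, or 0.0168%. They were br, Mur2B, which spans br and so shares its regions, and 5.8SrRNA:CR40454, an rRNA gene of a repeated family in which reads cannot be placed with certainty. The regions therefore cannot be assigned to br rather than Mur2B, and the pattern was picked out after its values were seen. Among the 325 genes of 50 kb and over, 2 had the pattern (0.615%), namely br and Mur2B. A late-3rd instar region of both replicates was itself found at only 90 of all genes (0.505%).

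**Figure D3:**
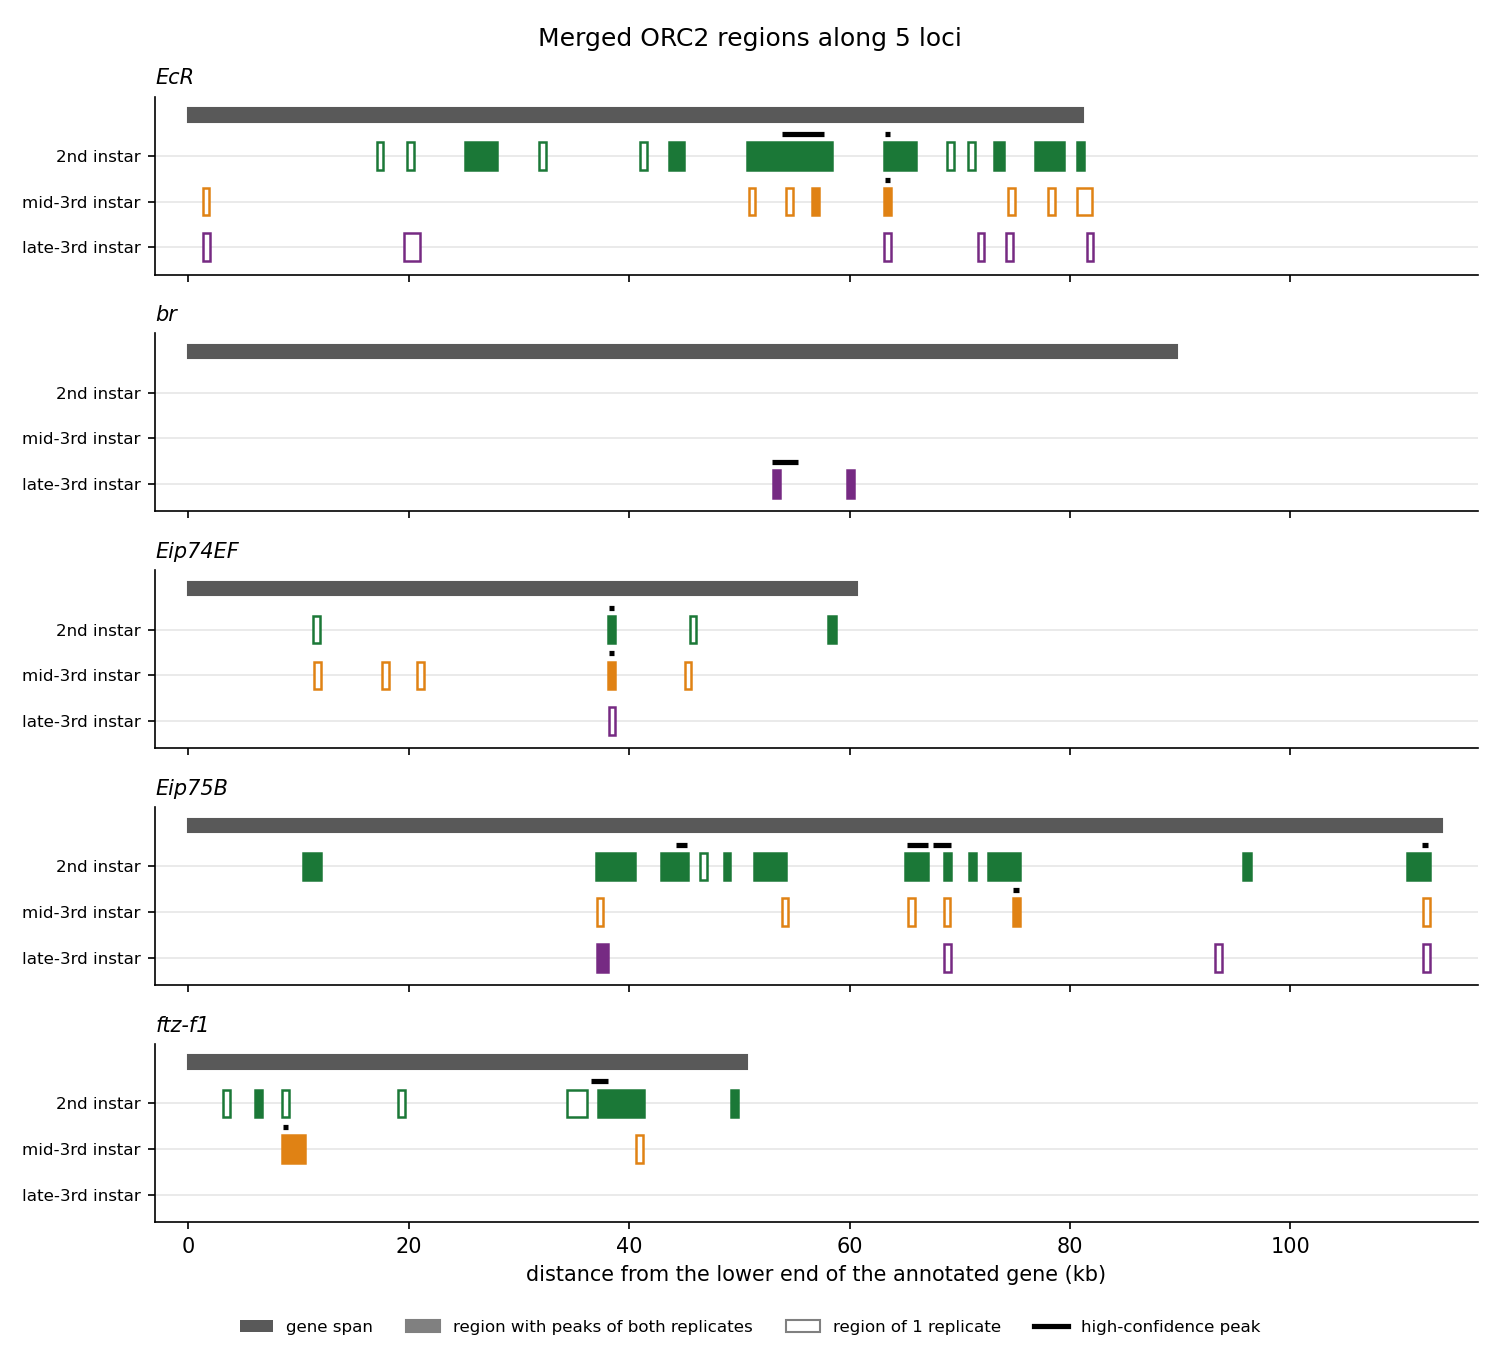
Merged ORC2 regions along 5 loci, drawn to scale as distance from the lower end of the annotated gene in kb, with 1 row for each stage. Filled boxes hold peaks of both replicates, open boxes a peak of 1 replicate, and black bars are high-confidence peaks. EcR and Eip75B have 13 and 12 regions at 2nd instar, the EcR and Eip74EF high-confidence peaks recur in place at mid-3rd instar, and br has 2 regions at late-3rd instar only.

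Eip75B, whose product E75 is a haem-binding nuclear receptor, is the longest locus (113.7 kb, 3L from 17950953 to 18064696). It had 17 and 19 peaks at 2nd instar, 2 and 5 at mid-3rd and 2 and 3 at late-3rd instar. The corresponding regions numbered 12, 6 and 4, and 2, 4 and 9 genes of the annotation held more. At 2nd instar 11 of its 12 regions held peaks of both replicates, against 7 of 13 at EcR, a difference that was not tested. At each later stage 1 region did so. The regions covered 20.8, 3.65 and 2.76 kb, or 18.0%, 3.15% and 2.38% of the locus.

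Of the 8 high-confidence peaks at the loci at 2nd instar, 4 were at Eip75B. The best of them lay from 18062935 to 18063473 (539 bp, IDR 0.00569), 1.22 kb from the upper end of the gene, and a region at this place recurred at mid-3rd instar (replicate 1) and at late-3rd instar (replicate 2). The others lay from 18018562 to 18020178 (IDR 0.0289), 17995199 to 17996198 (IDR 0.0719) and 18016156 to 18018035 (IDR 0.0944). The mid-3rd instar peak lay elsewhere in the gene, from 18025807 to 18026328 (522 bp, IDR 0.0270), within a merged 2nd instar region from 18023482 to 18026410. Besides the upper end, the sites from 17987964 to 17991517 and from 18019512 to 18020160 were listed at all 3 stages, and the first of these was the only Eip75B region with both replicates at late-3rd instar, from 17988059 to 17989014.

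Eip74EF encodes an ETS-domain transcription factor and spans 60.7 kb on 3L from 17558672 to 17619325. It had 4 and 2 peaks at 2nd instar, 1 and 5 at mid-3rd and 0 and 1 at late-3rd instar. This was the only locus other than usp and br where a later stage had more regions than 2nd instar, with 4, 5 and 1 regions, but 4 of the 5 mid-3rd instar regions rest on replicate 2 alone. The fifth recurred in place, like the EcR site at 6151077. It was listed from 17596769 to 17597405 at 2nd instar and from 17596773 to 17597408 at mid-3rd instar, in both replicates each time, and from 17596832 to 17597431 at late-3rd instar in replicate 2. Its high-confidence peaks, from 17596860 to 17597282 at 2nd instar (423 bp, IDR 4.09e-05) and from 17596846 to 17597308 at mid-3rd instar (463 bp, IDR 0.0015), had the lowest IDR of the 10 loci at each stage and ranked 39 of 797 and 13 of 307. The site is 38.2 kb from the lower and 22.0 kb from the upper end of the gene.

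The remaining early genes had regions at 2nd instar only. Eip78C, a nuclear receptor gene on 3L (21226609 to 21266503), had 2 and 3 peaks in 2 regions, both with peaks of the 2 replicates. Eip93F, on 3R from 21949114 to 22014539, encodes E93, a transcription factor of adult specification and of tissue death at metamorphosis. It had 3 and 3 peaks in 4 regions, 2 of them with both replicates. At mid-3rd and late-3rd instar each of these loci had 0 and 0 peaks, and whole spans of 39.9 and 65.4 kb were without a region.

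Of the later genes, ftz-f1 was the one with many regions. It encodes a nuclear receptor of the prepupal stage and spans 50.7 kb on 3L from 18750607 to 18801309. It had 6 and 9 peaks at 2nd instar, 2 and 2 at mid-3rd and 0 and 0 at late-3rd instar, in 7, 2 and 0 regions. The 2nd instar regions covered 8.99 kb, 17.1% of the locus, close to the share at Eip75B. Its high-confidence peaks at the 2 earlier stages lay at different places, from 18787160 to 18788662 at 2nd instar (1503 bp, IDR 0.0827), which overlaps lncRNA:CR45939 or lies within 1 kb of it, and from 18759209 to 18759636 at mid-3rd instar (428 bp, IDR 0.0815), where replicate 1 alone had a 2nd instar region.

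Hr3 and Hr4, nuclear receptor genes that act between the early genes and ftz-f1, were nearly empty. Hr3, on 2R from 10203995 to 10237348, had 0 and 1 peaks at 2nd instar, in a region from 10220200 to 10220799 that also lies at CG12912 and CG46321. Hr4, on the X from 1941940 to 2007956, had 0 and 2 peaks at 2nd instar in 2 regions. All of these rest on replicate 2 alone, and both loci had 0 and 0 peaks at both later stages. The 3 loci on the X together held 1.21 regions per 100 kb at 2nd instar, 0.605 at mid-3rd and 1.21 at late-3rd instar, against 1.85, 1.19 and 0.293 over the X as a whole. The loci on 3L held 9.16, 4.76 and 1.83 per 100 kb, against 3.31, 1.44 and 0.432 over that arm. All samples were male, in which the X is present in fewer copies than the autosomes. The part of copy number in the X values was not tested.

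A locus is a gene span with only 1 kb added to each side, so nearly any region counted at these long loci lies inside the gene by definition. A gene end of any annotated gene lay within 1 kb of the midpoint of 7 of 45 regions at 2nd instar (15.6%), 6 of 22 at mid-3rd instar (27.3%) and 4 of 13 at late-3rd instar (30.8%), against 58.5%, 65.7% and 47.6% of all regions in the lists. A long gene leaves much sequence far from any gene end, and the members' own ends made up 1, 2 and 1 of these cases. Only the outer ends of each annotated gene were used, so a transcript start inside a gene did not count as an end. The longest stretch without a region at 2nd instar was 17.1 kb at EcR, 14.7 kb at ftz-f1, 25.0 kb at Eip75B and the full 89.7 kb of the gene at br. At late-3rd instar it was 42.1 kb at EcR, 37.1 kb at Eip75B and 53.1 kb at br.

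Joined over the stages, regions within 1 kb of each other made 51 sites. Of these, 27 were listed at 2nd instar only, 9 at 2nd and mid-3rd instar and 7 at all 3 stages. The same counts over all sites of the lists are not given here, and the 2nd instar list is the longest. The 7 sites comprised 3 at EcR, 3 at Eip75B and 1 at Eip74EF, and in 5 of them regions of all stages shared at least 541 bp, while 2 at EcR had no shared base. Another 3 were listed at mid-3rd instar only and 3 at late-3rd instar only, the last being both br sites and 1 at Eip75B. Seen from the shorter lists, 18 of 22 mid-3rd instar regions (81.8%, Wilson 95% interval 61.5 to 92.7%) had a 2nd instar region within 1 kb, against 76.6% of the whole mid-3rd instar list. Of the late-3rd instar regions, 9 of 13 (69.2%, 42.4 to 87.3%) had a 2nd instar region there, against 76.9% of the whole list. Of the 45 regions at 2nd instar, 16 (35.6%, 23.2 to 50.2%) had a mid-3rd instar region and 9 (20%, 10.9 to 33.8%) a late-3rd instar region, against 37.0% and 12.8% of the whole list. Each whole-list value lies within the interval at the loci. These intervals treat regions as independent, although EcR and Eip75B held 25 of the 45, 14 of the 22 and 10 of the 13. They may therefore be too narrow, and the shares were not tested against the lists. Without replicate 2, the shares of the 2nd instar regions fell to 19.4% with mid-3rd and 5.56% with late-3rd instar, and the share of late-3rd instar regions with a 2nd instar region fell to 33.3%.

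Regions with peaks of both replicates were 27 of 45 at 2nd instar (60.0%, against 52.9% of the list), 5 of 22 at mid-3rd instar (22.7%, against 28.3%) and 3 of 13 at late-3rd instar (23.1%, against 12.9%). Replicate 2 alone gave 13 of the 22 mid-3rd and 7 of the 13 late-3rd instar regions. Such a region was found at 6 of 10 loci at 2nd instar, against 19.4% of all genes and 44.9% of genes of 50 kb and over. It was found at 4 loci at mid-3rd instar, against 6.16% and 20.6%, and at 2 loci at late-3rd instar, br and Eip75B, against 0.505% and 4.62%.

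Other genes of the pathway, and genes of larval fat body proteins, were counted the same way, in 42 genes on 5 lists. At 2nd instar 18 of the 42 had a region (42.9%), at mid-3rd instar again 18 (42.9%), and at late-3rd instar 7 (16.7%), against 30.9%, 17.9% and 4.79% of all genes. The 6 fat body protein genes made up 3, 5 and 5 of these. At late-3rd instar the only others were Hnf4 and Oatp74D, so the late share does not speak for the pathway genes as a group. The median span of the 42 genes was 4.05 kb, above that of all genes. Of 10 genes of ecdysone synthesis and turnover, 1, 2 and 0 had a region, and of 13 other ecdysone-induced genes 5, 2 and 0. Of 11 further nuclear receptors and cofactors, 7, 8 and 1 had a region, the late-3rd instar gene being Hnf4, a nuclear receptor of lipid metabolism, with 0 and 2 peaks. Both genes of ecdysone transport had a region at 2nd instar. At each later stage 1 did, which at late-3rd instar was the importer gene Oatp74D with 0 and 1 peaks.

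The last list holds genes of the larval fat body: Lsp1alpha, Lsp1beta, Lsp1gamma and Lsp2 encode storage proteins of the haemolymph, Fbp1 a receptor for their uptake, and Fbp2 is a further fat body protein gene. A region was found at 3 of 6 at 2nd instar, 5 at mid-3rd and 5 at late-3rd instar, against 26.1%, 14.8% and 3.47% of all genes under 5 kb. All 6 are short, at most 3.47 kb. At late-3rd instar Lsp2 had 0 and 2 peaks, and Lsp1beta, Lsp1gamma, Fbp1 and Fbp2 had 0 and 1 each. All late-3rd instar regions of the 5 lists thus rest on replicate 2 alone, none is high-confidence, and the count is a description without a replicate check.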

How the data were processed

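ORC2 ChIP-seq of male fat body was analysed at 3 stages with 2 replicates each. The authors aligned paired-end reads with Bowtie2 and called peaks per replicate against input with MACS2 at a q-value under 0.05. For each stage they deposited the merged regions of both replicates, which carry no score, and the high-confidence peaks with an IDR under 0.1. Versions are not given in the sources used here. Reads per library are unknown, so no interval for depth is given, and Wilson 95% intervals cover counts of peaks only.

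The labels name dm3, but the last listed position is 23538537 for the X and 32078831 for 3R. A Release 6 gene end was within 1 kb of 72.1% of the 797 high-confidence peaks of 2nd instar, against 38.1% with ends shifted by 2000 bp and 28.6% by 100000 bp. The lists were therefore read as Release 6, with no conversion. Merged regions were at least 600 bp wide, and 17 of 45, 16 of 22 and 9 of 13 at the loci were exactly so.

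Regions were assigned to loci by overlap with the gene span and 1 kb to each side. Numbers and shares of peaks per replicate were compared with exact two-sided permutation tests, and all else is description. The study calls its replicates biological, and p-values measure only the spread between them. The members, pathway lists and tests were chosen with earlier results of these data known. All 10 members are named, and single regions are described where high-confidence at any stage or listed at all 3 stages. All 42 pathway genes were matched by symbol, except that phm, EcI and Eip55E were matched by an older symbol, as phtm, Oatp74D and Cth. The gene table gives no strand, so outer gene ends replaced the planned gene starts. Alternatives were the flank, the overlap rule, high-confidence and both-replicate regions, the sharing distance, the gene background and leaving out each replicate. Others, chosen after seeing the data, left out EcR, its regions near tRNA genes, or EcR and Eip75B. The overlap steps were tested on simulated data. Python 3.11.15, numpy 2.4.6, pandas 2.3.3 and scipy 1.17.1 were used.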

Additional observations from a re-analysis of the deposited data

How the results depend on the processing

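Of 126 recomputed values, 92 were classed as the same as the reported ones, 34 as moved and 0 as reversed. The class of the same is wide and does not mean that a value stayed close. In it, the share of late-3rd instar regions with a 2nd instar region was 46.2% by direct overlap, against 69.2% within 1 kb. With 5 kb to each side, 7 loci had a region at mid-3rd instar, against 5 with 1 kb. High-confidence peaks gave 8 regions at the loci at 2nd instar and 4 and 1 at the later stages, 1.28, 0.641 and 0.160 per 100 kb, at 4 loci at 2nd and 1 at late-3rd instar. Regions of both replicates gave 27, 5 and 3, or 4.33, 0.801 and 0.481 per 100 kb, at 2 loci at late-3rd instar. Without EcR, 14 regions were left at mid-3rd and 7 at late-3rd instar. Without EcR and Eip75B the density was 4.70, 1.88 and 0.705 per 100 kb. An IDR under 0.05 left 4 high-confidence peaks at 2nd instar. Of protein-coding genes alone, 33.1% had a region at 2nd and 18.5% at mid-3rd instar. Within 5 kb, 53.3% of 2nd instar regions had a mid-3rd and 44.4% a late-3rd instar region.

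Leaving out each replicate in turn gave 9 to 18 regions at mid-3rd and 6 to 10 at late-3rd instar, or 1.44 to 2.88 and 0.961 to 1.60 per 100 kb. Shared regions ranged over 19.4 to 30.6% for 2nd with mid-3rd, 5.56 to 19.4% for 2nd with late-3rd, 11.1 to 27.8% for mid-3rd with late-3rd, 33.3 to 80.0% for late-3rd with 2nd, and 16.7 to 50% for late-3rd with mid-3rd instar. The lowest values are those without replicate 2.

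Replicate numbers are shared between stages, but nothing shows that they pair the samples. With the replicate number as a block, the differences in peaks were -39.5, -45.5 and -6.0 and those in shares -0.325, 0.607 and 0.932, as without it. An exact permutation within replicate numbers gave p = 0.5 for each, the smallest it can give with 2 pairs. Distances to gene starts were not run, since the gene table gives no strand. The unknown depth limits every absence of a region, which says only that no peak passed the threshold of the authors.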
